A study of Ascaridia galli and Trichostrongylus colubriformis with 4 samples.

Results

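Transcripts of the small RNA silencing machinery were followed in 2 parasitic worms, the strongylid *Trichostrongylus colubriformis*, which lives in sheep, and *Ascaridia galli*, an ascaridid that lives in chickens. A unigene, meaning an assembled transcript, was taken as a member when the name of its best protein hit contained Argonaute, Piwi, PAZ domain, Dicer, RNA-dependent RNA polymerase or RNA-directed RNA polymerase. This gave 35 members of 150798 unigenes in *A. galli*, hitting 18 different proteins, and 25 of 43810 in *T. colubriformis*, hitting 13. The rule itself reads names only, and no measured value.

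Worms taken from hosts at slaughter were kept in dishes of 6 in double distilled water or in a water extract of a moss, *Pottia lanceolata*, and poly(A) RNA of whole bodies was sequenced with 1 library per group, 4 in all. Extract strengths of 10, 20 and 50 mg/ml were prepared, and which of them the sequenced worms met, and how many worms went into a library, is not given in the sources used here. Sex and stage are not given either, and the collection text of the sheep worm samples describes chicken worms. Columns of the deposited tables are headed condition A and condition B (A and B from here on), and nothing ties either to extract or water. Each ratio below is therefore B over A, nothing can be read about the sign of an extract effect, and the order may differ between the worms.

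Small RNA silencing runs in steps. Dicer cuts double-stranded RNA into short guides, an Argonaute protein holds a guide and finds matching transcripts, and in nematodes RNA-dependent RNA polymerases (RdRPs) copy the targeted transcript into secondary guides that are loaded onto a worm-specific branch of Argonautes, the WAGO proteins. In *Caenorhabditis elegans* much of this machinery acts in the germline, and it also carries the response to introduced double-stranded RNA that is used to silence genes by RNA interference. The Piwi domain is the slicer-type domain found in Argonautes of every branch, so a product named only for it is not thereby placed in the Piwi branch.

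In *A. galli* the recovered depth was 87659967 reads in A and 69118994 in B. In *T. colubriformis* it was 91182265 and 91812201. Normalized counts are the authors' values. In *T. colubriformis* 1 read is worth 2 normalized counts in A and 0.5 in B, so scaling by total reads in place of the deposited scaling raises a log2 ratio by about 1.99 before a pseudocount is added, and in *A. galli* by about 0.38. With the pseudocount the rise is smaller where counts are low, down to 1.40 and 0.32 among the members. A member counted as higher or lower when the log2 ratio, computed with a pseudocount of 1, passed 4-fold and there were 20 or more normalized counts in the larger of A and B. Without replicates there is no test between conditions. The 95% intervals given are exact binomial intervals of counting error alone, without the pseudocount, and leave out variation between worms. In whole-worm RNA, fewer cells of a type and less RNA per cell cannot be told apart.

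The members of *A. galli* stayed close together and mostly slightly lower in B. Of the 34 with at least 20 normalized counts, 0 were at least 4-fold higher and 1 was at least 4-fold lower. Among all *A. galli* unigenes, 22.7% were higher and 9.76% lower by the same rule. Set beside unigenes that hit the same close relatives, the roundworm genera related to *Ascaridia*, the distance is small: of those, 2.95% were higher and 7.7% lower. The median log2 ratio of the members was -0.55, near the -0.58 of the 27394 unigenes with such a hit, while all unigenes with any protein hit had -0.25. Quartiles were -1.07 and 0.002 for the members and -1.13 and -0.04 for the close-relative hits. For all unigenes they were -1.03 and 1.68. The members' spread was thus near that of close-relative hits. Of the members 33 hit a close relative, 29 of them the pig roundworm *Ascaris suum*. With total counts as the scale the members' median was -0.17.

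**Figure D1:**
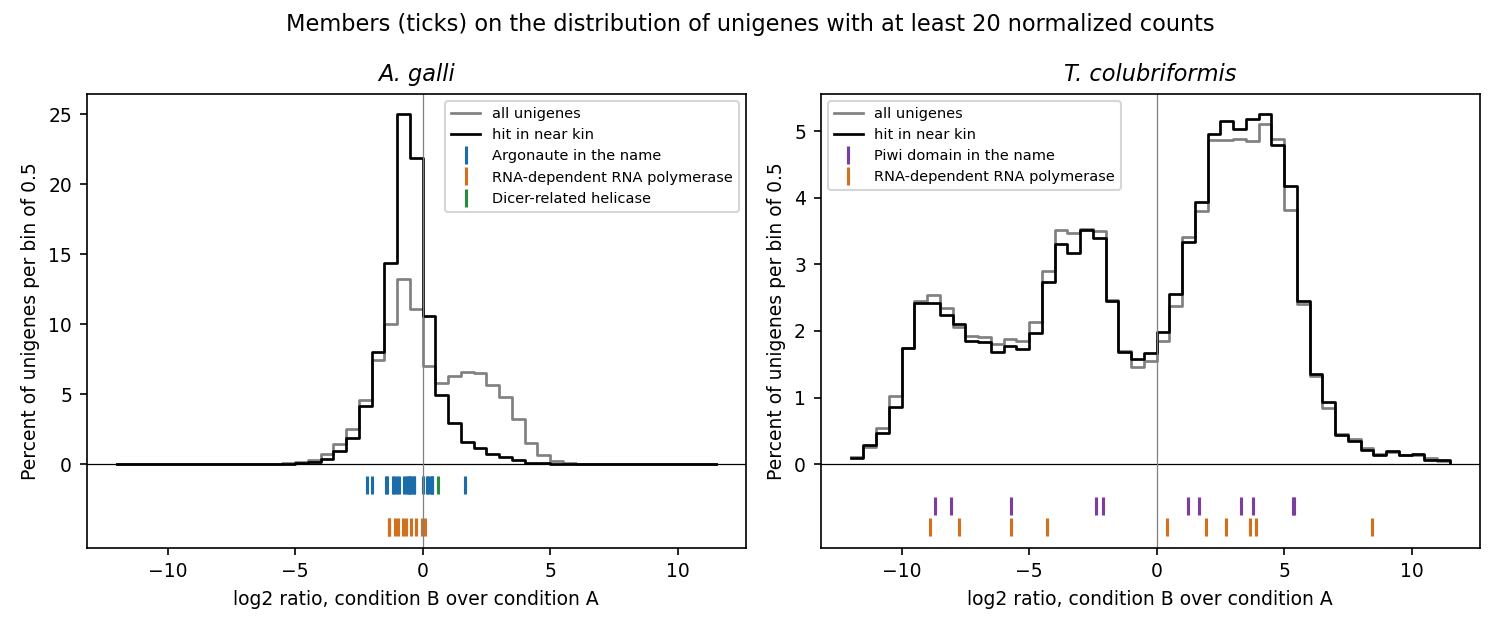
Share of unigenes (percent, y axis) in bins of 0.5 of the log2 ratio of condition B over condition A (x axis), for unigenes with at least 20 normalized counts. Lines show all unigenes and those with a hit in close relatives, and ticks below the axis show the members by name class. *A. galli* members sit under the narrow peak of close-relative hits around -0.58, and *T. colubriformis* members are spread over ratios from -8.89 to 8.44 on a distribution as broad as their own spread.

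Most counts of the members named Argonaute in *A. galli* came from 2 unigenes, both worm-specific Argonautes. The unigene whose hit is Argonaute wago-1 (Chick_Unigene_135699), aligned to residues 20 to 961 of a protein of 961 residues, had 36116 normalized counts in A and 25541.4 in B. In *C. elegans* WAGO-1 is a germline Argonaute that binds the secondary guides made by RdRPs. The log2 ratio was -0.50 (95% interval -0.53 to -0.47), and -0.12 by total counts. It held 60.4% of the members' counts in A (interval 59.8% to 60.9%) and 63.0% in B (62.4% to 63.7%). CSR-1 (Chick_Unigene_31530), which in *C. elegans* binds guides against transcripts expressed in the germline, had 11954.5 and 7629.9 normalized counts, a log2 ratio of -0.65 (-0.71 to -0.59). Both were lower in B under all 3 scalings. Together they held 80.3% of the members' counts in A and 81.9% in B. These shares cover named members only. Outside the rule, uncharacterized products with the gene ontology term gene silencing by RNA also had many counts. Among them, Chick_Unigene_105456 had 11440.4 normalized counts in A and 8929.6 in B, and Chick_Unigene_25188 had 10028.8 and 3270.1.

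Levels between genes can be set side by side only per length. The length used is that of the unigene up to the far end of its alignment, since the full length is not given, so the levels per kb are upper limits. The wago-1 unigene had 11787 normalized counts per kb in A and 8336 in B. CSR-1 followed with 2812 and 1795. All other members lay between 25.5 and 646 per kb in A and between 21.7 and 508 in B. On these lengths the ranges of the leading pair and of the other members do not meet in either condition. The pair was picked by its counts in these same data, so this separation is no test. Products outside the name rule were not put on this scale.

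The other WAGO-branch members went both ways around the leading pair. WAGO-2 (Chick_Unigene_181702) had 872.1 normalized counts in A and 399.4 in B, a log2 ratio of -1.12 (-1.37 to -0.88). The product called WAGO-new2 had 460.4 and 539.4, a ratio of 0.23 whose interval (-0.03 to 0.49) holds 0 by the deposited scaling. By total counts its ratio was 0.61. NRDE-3, which in *C. elegans* carries guides from the cytoplasm into the nucleus of body cells, was hit by 4 unigenes that summed to 3154.6 and 2252.5 normalized counts, a log2 ratio of -0.49 (-0.60 to -0.37). The longest of them, Chick_Unigene_75826 over residues 50 to 987, had 1933.8 and 1021.7 (-0.92). Chick_Unigene_142125 over residues 50 to 919 had 557.7 and 707.1, a log2 ratio of 0.34 (0.11 to 0.57), on the opposite side of 0. The remaining NRDE-3 unigenes both had -0.34.

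ALG-1 is the main microRNA Argonaute of *C. elegans*, and its products in *A. galli* gave nearly equal counts in the 2 conditions by the deposited scaling. The 3 unigenes hitting ALG-1 summed to 515.1 normalized counts in A and 560.1 in B, a log2 ratio of 0.12 (-0.13 to 0.37). Single unigenes ran from 0.01 to 0.36. By total counts the sum was 0.50, so near equality depends on the scaling. A further unigene hit another *A. suum* entry, Protein argonaute alg-1, over residues 709 to 972 at 99.2% identity, and had 156.2 and 104.5 normalized counts (-0.58, interval -1.11 to -0.06). ALG-1 Chick_Unigene_102243 aligns at 99.1% identity over residues 473 to 1000 of its own hit, with 261.6 and 264.3 normalized counts. How the authors' counting divided reads between such like transcripts is not given, so the difference between these entries is uncertain.

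ALG-6 had the only member past the 4-fold rule. Its 6 unigenes summed to 1071.9 normalized counts in A and 464.3 in B, a log2 ratio of -1.21 (-1.43 to -0.98), and all 6 were on the negative side. The single call, Chick_Unigene_24566 over residues 53 to 331, had 124.7 and 26.6 normalized counts, a log2 ratio of -2.19 (-3.20 to -1.36), which is -1.81 by total counts and then inside 4-fold. Chick_Unigene_33187, which covers the same stretch and reaches residue 872, had 379.3 and 168.6 (-1.17). The largest positive ratio in this worm belonged to a like-named product of another entry, Argonaute alg-6 (Chick_Unigene_197617), with 17.2 and 57.2 normalized counts, a log2 ratio of 1.68 (0.59 to 3.03). It passes 4-fold by total counts, at 2.05. ALG-7 had 2 unigenes with 533.4 and 453.7 normalized counts in sum (-0.23, interval -0.50 to 0.03).

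A pair of Argonaute names rested on short or unusual hits. Argonaute-1 of *Anisakis simplex* was aligned over 44 residues only, with 65.9 and 15.8 normalized counts, and its log2 ratio of -1.996 (interval -3.39 to -0.92) lay just inside the threshold, the ALG-6 call just outside it. Protein argonaute-2 of *Trichinella papuae* is an entry of 2012 residues whose gene is listed as SLCO5A1, the name of an organic anion transporter, so its name and its gene label do not match. It had 76.1 and 27.6 normalized counts (-1.43, interval -2.46 to -0.54).

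Among the members, those named RdRP had a lower summed B over A ratio than those named Argonaute. The 11 RdRP unigenes of *A. galli* summed to 4823.8 normalized counts in A and 2438.6 in B, a log2 ratio of -0.98 (-1.08 to -0.88). The 23 Argonaute unigenes had -0.53 (-0.56 to -0.50), and -0.51 (-0.58 to -0.43) without wago-1 and CSR-1. Without its 2 most abundant unigenes the RdRP sum was -0.81 (-0.95 to -0.68). The counting intervals of these sums do not meet, and since a scaling moves both alike the gap between them is the same under each. Single unigenes of the classes overlapped widely. The RdRP median was -0.72 (quartiles -1.06 and -0.32), and the Argonaute median -0.53 (quartiles -1.06 and 0.10). Without replicates this gap has no test, and it covers named members only. Unigenes outside the rule with the gene ontology term gene silencing by RNA had log2 ratios from -1.62 to 0.72. Those with the term RNA-directed RNA polymerase activity had ratios from -1.27 to 1.22. Among the silencing-term unigenes, those with the most counts were Chick_Unigene_105456 (-0.36), Chick_Unigene_25188 (-1.62) and Chick_Unigene_127310 (5242.6 and 2064, -1.34). The latter pair lay below the RdRP sum of -0.98. Among the polymerase-term unigenes, Chick_Unigene_46553 led with 1364.9 and 566.1 (-1.27), followed by Chick_Unigene_99762 (-0.63). Neither set is in these sums, and whether the gap holds with both added was not tested.

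The RdRPs behind this sum differed among themselves. EGO-1 (Chick_Unigene_34501), the germline RdRP of *C. elegans*, had 916.7 and 367.8 normalized counts, a log2 ratio of -1.32 (-1.57 to -1.07). A putative RdRP 1 of *A. suum* was hit by 5 unigenes that summed to 3229.7 and 1605.4 (-1.01, interval -1.13 to -0.89), all negative, from -1.34 to -0.45. Its most abundant unigene was Chick_Unigene_81272, with 1316.2 and 617.3 normalized counts (-1.09). RRF-3, which in *C. elegans* makes primary guides upstream of the amplification step, had 2 unigenes with 595.3 and 383.6 in sum (-0.63, interval -0.90 to -0.37). The RdRP of *Toxocara canis* had 76 and 77.9 in sum over 2 unigenes (0.04, interval -0.65 to 0.72), with no difference detectable at this depth. The RdRP of *Elaeophora elaphi* had 6.1 and 3.9 normalized counts, the only member under the minimum of 20.

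The rule found a single Dicer name in *A. galli*. It is a Dicer-related helicase, a kind of helicase that works beside Dicer in *C. elegans*. Its unigene (Chick_Unigene_200866) aligned to residues 1 to 117 of the hit at 35.0% identity and had 20.3 and 31.6 normalized counts, a log2 ratio of 0.61 (-0.59 to 1.94). No member of this worm carried Piwi or PAZ domain in its name.

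**Figure D2:**
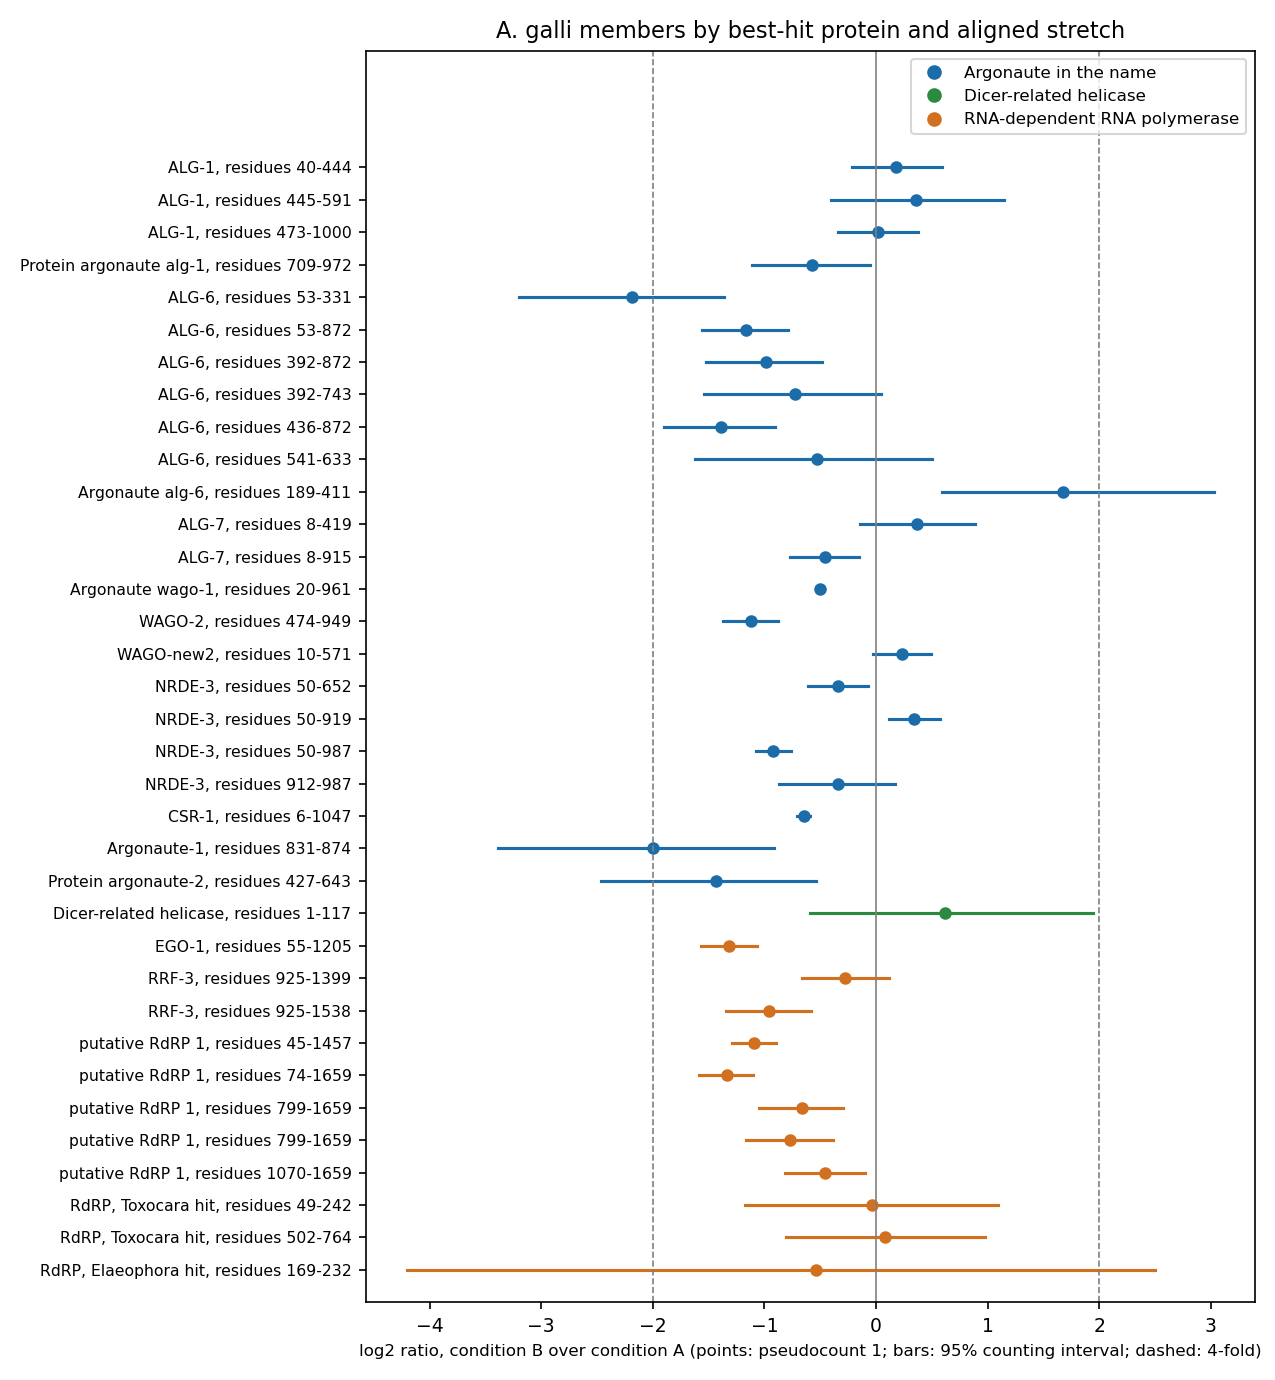
Log2 ratio of condition B over condition A (x axis) for each of the 35 *A. galli* members, listed by best-hit protein and aligned residues, with 95% counting intervals as bars and dashed lines at 4-fold. Points use a pseudocount of 1, colours give the name class, and 26 of the 35 points lie left of 0, with 1 past the left dashed line.

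Counted over single members of *A. galli* with at least 20 normalized counts, the counting interval lay below 0 for 20 and above 0 for 2. By total counts these became 14 and 6. Of the 26453 unigenes with a hit in close relatives and the same minimum, 15857 lay below 0 and 2868 above. By total counts those were 11045 and 5563. Of all 114411 unigenes past the minimum, 42082 lay below and 39042 above. The members' counts are thus near the background of close-relative hits. In percent of all reads the members were 0.0673% in A (0.0665% to 0.0681%) and 0.0594% in B (0.0586% to 0.0603%). Of 28 pairs that hit the same protein and overlap by at least 50 residues, 3 had opposite signs. The median difference was 0.52 on the log2 scale and the largest 1.26. Most of these pairs share unigenes of ALG-6 or of putative RdRP 1, so they are not separate cases. The median range within a protein was 0.83 over 7 member proteins, inside the quartiles of 0.43 and 2.09 (median 1.04) over all 10929 such proteins.

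Sperm protein unigenes had low B over A ratios in the same libraries. Of 210 unigenes named for major sperm protein, vitellogenin, chondroitin proteoglycan, synaptonemal or meiotic recombination products, 204 had at least 20 normalized counts, 57 of them at least 4-fold lower and 6 higher, with a median log2 ratio of -1.60. Major sperm protein, the motility protein of nematode sperm, made up 159 of the 210 and 52 of the 57 lower calls. It had a median log2 ratio of -1.77, a summed ratio of -1.74, and 5077184 normalized counts in A and 1523105 in B. The remaining names lay elsewhere: chondroitin proteoglycan products, which take part in eggshell formation and embryonic division in *C. elegans*, had a median of -0.57 over 37 unigenes, and meiotic recombination products had -0.71 over 8, beside the members' -0.55. Vitellogenin, the yolk protein, had a median of 1.95 over 4 unigenes, on the opposite side. Synaptonemal products, which hold paired chromosomes together in meiosis, had 0.23 over 2 unigenes. No test of a difference from the members is possible, and the part of these products in the members' ratios was not tested.

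Other steps of the pathway in *A. galli* were read from lists of product names, whose medians ran from -0.70 to -0.08 with single unigenes above the highest member in the lists for microRNA processing and for silencing partners. Of 20 unigenes named for microRNA processing, 18 had at least 20 normalized counts, with 1 higher, 0 lower, a median of -0.46 and ratios up to 2.50. That list also took in ERI1 exoribonuclease 3 by its wording, its most abundant entry, with 2598 and 1269.2 normalized counts. Unigenes of Drosha, the nuclease that cuts primary microRNA transcripts, went both ways. The most abundant, Chick_Unigene_98847, had 782.8 and 458.6 normalized counts (-0.77, interval -1.01 to -0.53). Of the others that hit the same protein, Chick_Unigene_218260 had 233.2 and 379.7 (0.70, 0.36 to 1.05), Chick_Unigene_105827 had 107.5 and 195.3 (0.86, 0.37 to 1.37), Chick_Unigene_193158 had 20.3 and 76.9 (1.87, 0.89 to 3.09), and Chick_Unigene_41435 had 278.9 and 281.1 (0.01, -0.34 to 0.36). Among 12 unigenes for double-stranded RNA binding and spread, 0 were called either way and the median was -0.08. A double-stranded RNA-binding protein led them by counts (Chick_Unigene_152440, 597.3 and 702.1).

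The list of exonucleases, end methylation and mutator products had 12 unigenes, 0 called and a median of -0.18. In it eri-1, an exonuclease that limits RNA interference in *C. elegans*, had 1510.9 and 807.7 normalized counts in one unigene (-0.90, interval -1.08 to -0.73) and 692.6 and 791.9 in another (0.19, -0.02 to 0.41). Exonuclease mut-7, part of the mutator complex that supports RdRP amplification in *C. elegans*, had ratios from -0.16 to 0.35 over 4 unigenes. The list of silencing partners and germ granules had 13 unigenes with at least 20 normalized counts, 2 higher, 0 lower and a median of -0.70. Most of it was ectopic P granules proteins, known from autophagy in *C. elegans*, with Ectopic P granules protein 3 at 4077.5 and 2017.7 normalized counts. Its highest ratio, 3.47 (2.54 to 4.75), belonged to a unigene of Ectopic P granules protein 5 (Chick_Unigene_103859) with 17.2 and 201.2. The list's lowest ratio, -1.99 (-2.78 to -1.31), belonged to germline helicase glh-3 with 167.3 and 41.4, at 30.2% identity. A glh-1 hit at 37.6% identity had -0.72, and Tudor domain-containing protein 3 had 2471.2 and 1219.9 (-1.02).

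**Figure D3:**
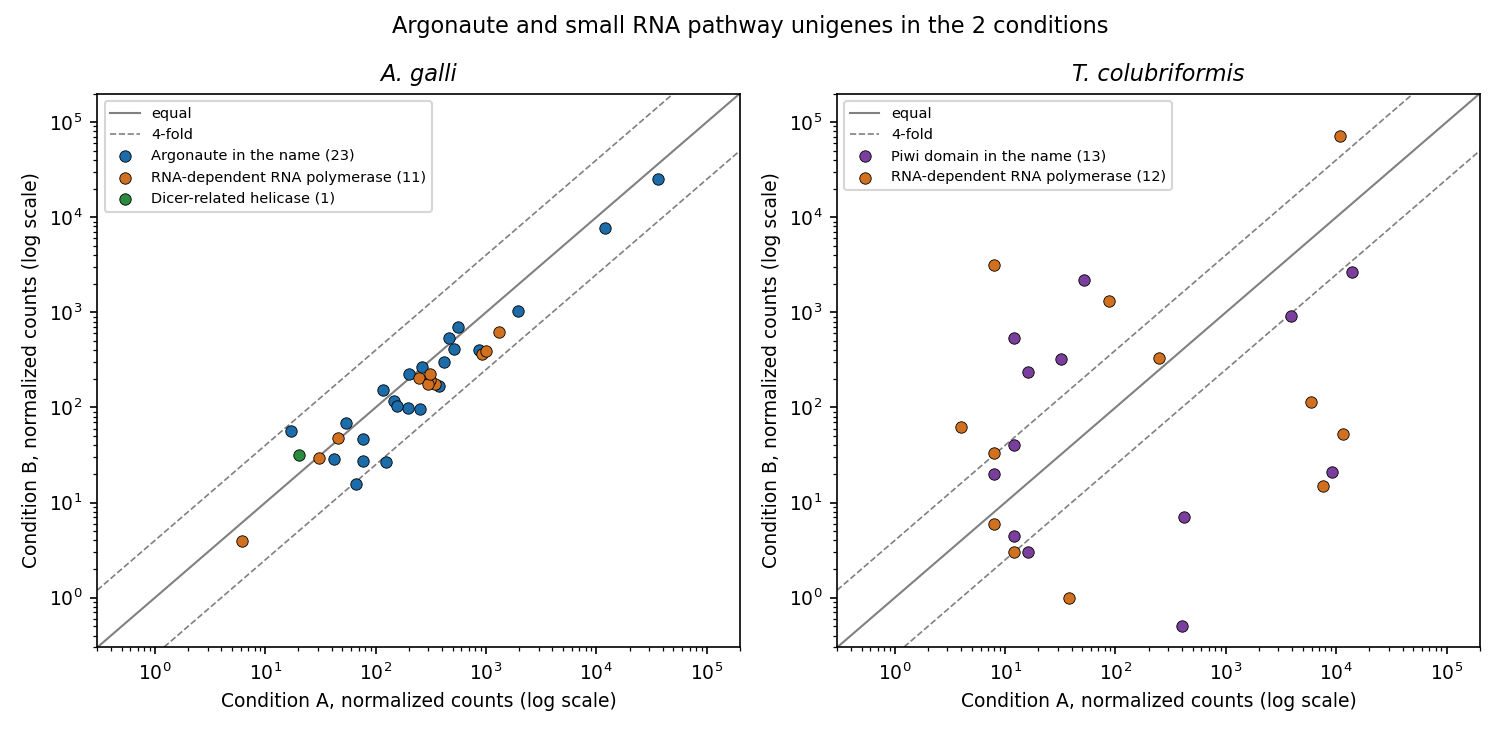
Normalized counts of each member in condition A (x axis, log scale) and condition B (y axis, log scale), by name class. The solid line marks equal counts and the dashed lines 4-fold; the *A. galli* members follow the solid line over the whole range of counts, while 17 of the 25 *T. colubriformis* members lie outside the dashed lines with at least 20 normalized counts.

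The members of *T. colubriformis* spread widely and in both directions. Of the 21 with at least 20 normalized counts, 8 passed the rule as higher in B and 9 as lower. Those counts follow the deposited scaling: by total counts 12 were higher and 7 lower, and by the trimmed mean of M-values, a scale set on the middle of the log ratios, 11 and 7. Among all *T. colubriformis* unigenes, 39.7% were higher and 41.6% lower (51% and 29.4% by total counts), and among those with a hit in related strongylid genera 41.1% and 39.8%, so a split of this kind is the background of these libraries and not a result about the members. The 25 members comprise 13 named Piwi domain protein and 12 RdRPs, and none carries Argonaute, Dicer or PAZ domain in its name. All 25 hit other strongylid worms, 13 of them the nodular worm *Oesophagostomum dentatum*. The median log2 ratio was 1.22, with quartiles at -5.69 and 3.66, so the median describes few of them. All unigenes had a median of 0.33, with quartiles at -4.29 and 3.42.

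In A the members' counts were divided among several unigenes, of which Sheep_Unigene_4041 held 21.6%, Sheep_Unigene_30500 18.0% and Sheep_Unigene_62464 16.8%. In B most were on Sheep_Unigene_62464 alone. In sum the members had 63900 and 82880.5 normalized counts, a log2 ratio of 0.38 (0.35 to 0.40) that rested on Sheep_Unigene_62464 and was -2.15 without it. By total counts the sum was 2.37, and -0.16 without that unigene. The members made up 0.0350% of all reads in A (0.0345% to 0.0356%) and 0.181% in B (0.179% to 0.182%).

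Sheep_Unigene_62464 is an RdRP transcript aligned to residues 993 to 1186 of the *O. dentatum* protein OESDEN_08100 at 89.7% identity. It had 10734 normalized counts in A and 70906.5 in B, a log2 ratio of 2.72 (2.67 to 2.78) and 4.71 by total counts. Its share of the members' counts was 16.8% in A (16.2% to 17.4%) and 85.6% in B (85.3% to 85.8%). Per kb it had 18412 and 121623 normalized counts, upper limits on a short aligned stretch. The nearest member per kb was Sheep_Unigene_20054 in A, at 16937, too close on such lengths to rank the pair, and Sheep_Unigene_91915 in B, at 1930. Both other unigenes of this protein cover other stretches with far fewer counts. Sheep_Unigene_91915, over residues 348 to 575, had 88 and 1320 normalized counts (3.89, interval 3.30 to 4.59), and Sheep_Unigene_91571, over residues 1180 to 1213, had 250 and 333 (0.41, 0.02 to 0.83). Along 1 protein the level per kb thus ran from 129 to 18412 in A and from 525 to 121623 in B.

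A second RdRP protein, OESDEN_03608, held unigenes called in opposite directions. Sheep_Unigene_30500, which covers residues 111 to 945 of its 946, had 11502 normalized counts in A and 52.5 in B, a log2 ratio of -7.75 (-8.20 to -7.38). Sheep_Unigene_50469, over residues 65 to 404, had 4 and 62, a log2 ratio of 3.66 (1.42 to 9.28) that rests on 2 reads in A. The remaining pair had few counts, 8 and 33.5 (1.94) and 8 and 6 (-0.36). The first of these lies just inside the 4-fold threshold.

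The other RdRPs were each seen mainly in 1 condition. ANCCEY_09864 was hit by Sheep_Unigene_4339 over residues 3 to 569, its whole length but for the first residues, with 7582 normalized counts in A and 15 in B, a log2 ratio of -8.89 (-9.82 to -8.26). A short second unigene of that protein had 12 and 3. The RdRP domain protein HCOI_00349900 of *Haemonchus contortus* (Sheep_Unigene_20054) had 5894 and 113 (-5.69, interval -5.99 to -5.43). The hit in *Angiostrongylus costaricensis* (Sheep_Unigene_23636) had 38 and 1 (-4.29). In the opposite direction, the hit in *Nippostrongylus brasiliensis* (Sheep_Unigene_53392), over residues 519 to 1247, had 8 normalized counts in A, which is 4 reads, and 3133 in B, a log2 ratio of 8.44 (6.76 to 11.66).

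The Piwi domain members summed to 27772 normalized counts in A and 6902 in B, a log2 ratio of -2.01 by the deposited scaling and -0.02 by total counts. The most abundant was Sheep_Unigene_4041, over residues 6 to 865 of ANCCEY_01597 at 48.7% identity, with 13800 and 2632 normalized counts (-2.39, interval -2.46 to -2.32). A second unigene of that protein, Sheep_Unigene_88069, over residues 6 to 589 at 38.1% identity, had 16 and 235 (3.80, 2.50 to 5.76). Whether the pair comes from 1 gene cannot be told from the hit. By total counts the first came to -0.40 and left the 4-fold range.

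The hookworm protein ANCDUO_09665 was hit by 3 unigenes that all had nearly their whole count in A. Sheep_Unigene_9470, over residues 55 to 797, had 9100 and 21 normalized counts (-8.69, interval -9.45 to -8.14). Sheep_Unigene_14137 had 420 and 7 (-5.72), and Sheep_Unigene_3455 had 402 and 0.5, which is 1 read in B (-8.07, interval -19.65 to -6.40). All of them stayed past 4-fold by total counts, where the smallest difference was -3.82.

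OESDEN_13193 held a pair aligned to the same stretch at like identity and with opposite calls. Sheep_Unigene_54378, over residues 167 to 361 at 92.8% identity, had 3890 and 909 normalized counts (-2.10, interval -2.23 to -1.97), just outside the threshold. Sheep_Unigene_39336, over residues 167 to 396 at 92.2% identity, had 32 and 322.5 (3.29, 2.34 to 4.56). By total counts the first was at -0.11.

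Both remaining *O. dentatum* Piwi domain proteins with calls were seen mainly in B. Sheep_Unigene_64080 on OESDEN_00595 had 52 and 2163.5 normalized counts (5.35, interval 4.60 to 6.29). Sheep_Unigene_62478 on OESDEN_10852, identical to the hit over 115 residues, had 12 and 543.5 (5.39, 3.95 to 7.78). OESDEN_03219 was covered over its full 915 residues by a pair of unigenes with few counts, 8 and 20 (1.22) in one and 12 and 40.5 (1.67) in the other. ANCDUO_07727 was covered over residues 36 to 1068 of its 1068 with 16 and 3 normalized counts in one unigene and 12 and 4.5 in the other, all under the minimum.

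**Figure D4:**
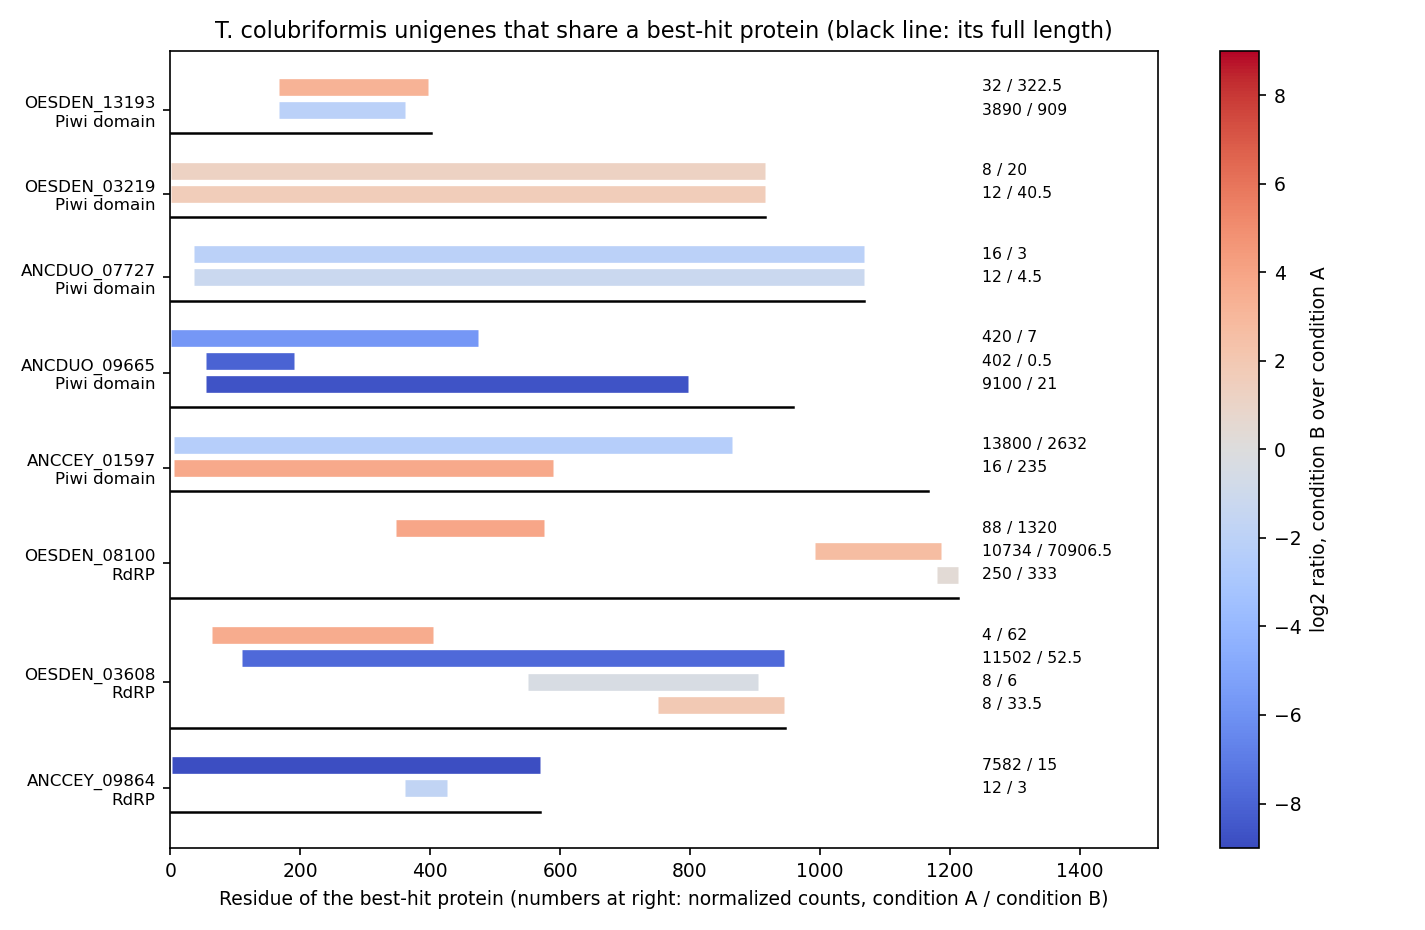
Stretch of the best-hit protein (residue number, x axis) covered by each *T. colubriformis* unigene for the 8 proteins hit by 2 or more unigenes, coloured by the log2 ratio of condition B over condition A, with normalized counts of A and B at the right. The black line gives the protein's length; red and blue bars lie over the same residues in OESDEN_13193, ANCCEY_01597 and OESDEN_03608.

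Unigenes of 1 protein often disagreed in this worm. Of 12 pairs overlapping by at least 50 residues, 5 had opposite signs, the median difference was 4.18 on the log2 scale and the largest 11.40. Of the 6 member proteins with 2 or more unigenes of at least 20 normalized counts, 3 held calls in both directions. Among all such *T. colubriformis* proteins 44.9% of 3527 did so, against 1.63% of 10929 in *A. galli*, where 0 of 7 member proteins did. The disagreement is thus a property of the table at large and is not particular to these products.

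**Figure D5:**
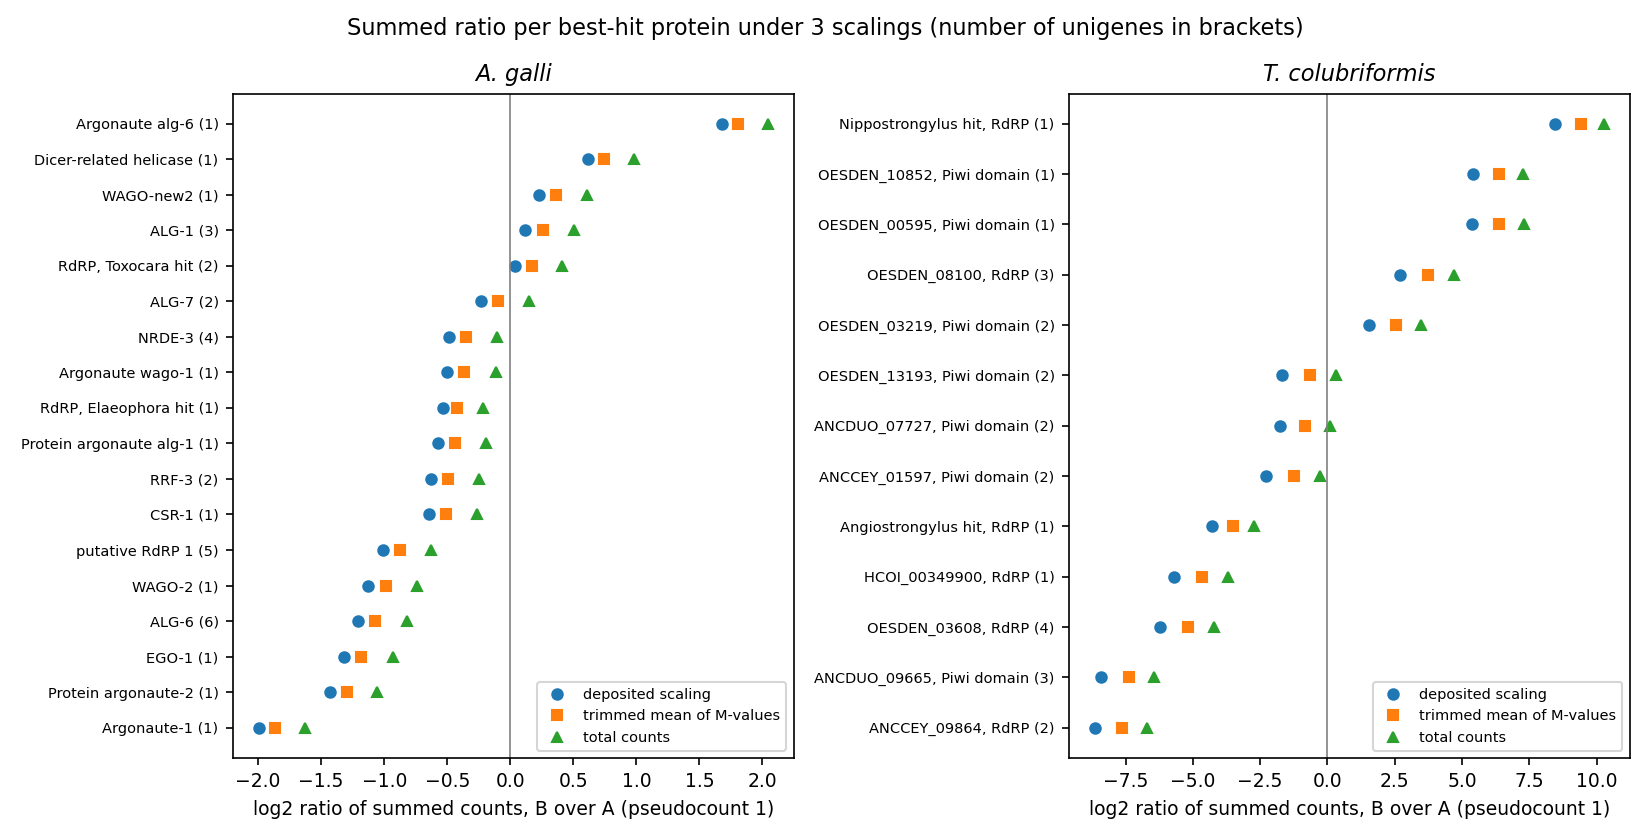
Log2 ratio of summed counts, condition B over condition A (x axis), for each best-hit protein under the deposited scaling, the trimmed mean of M-values and total counts, with the number of unigenes in brackets. In *A. galli* the spread between scalings (0.38) is small against the range over proteins, but ALG-7 crosses 0; in *T. colubriformis* it reaches 1.99, and OESDEN_13193 and ANCDUO_07727 cross 0 while proteins beyond -4 or above 1.5 keep their side.

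Few other pathway products were named in *T. colubriformis*. SID-1, the channel through which double-stranded RNA enters cells in *C. elegans*, had 20 and 64.5 normalized counts (1.64, interval 0.39 to 3.36), and 5'-3' exoribonuclease 1 had 4 and 14. A p-granule-associated protein had 53348 and 1885 (-4.82, interval -4.89 to -4.75), at least 4-fold lower. No unigene was named for microRNA processing. Among 26 unigenes with germline names, 24 had at least 20 normalized counts, 11 of them higher and 5 lower, all major sperm proteins. These 24 had a median log2 ratio of 1.73 and summed to 44028 normalized counts in A and 12512 in B. A large part of the sum in A was 1 unigene, Sheep_Unigene_19390, with 24386 in A and 19 in B (-10.25). Chondroitin proteoglycan, synaptonemal and meiotic recombination names were not found, and the only name containing vitellogenin was a vitellogenin-linked product under the minimum of 20. Their part in the members' ratios was not tested.

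For *A. galli*, the authors' deposited table marked 2 members down and 33 neutral, with a lowest p-value of 0.266. For *T. colubriformis*, the authors' deposited table marked 10 down, 9 up and 6 neutral, with a lowest p-value of 0.4. All adjusted p-values of members in the authors' deposited tables were 1.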

How the data were processed

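Per the file headers, the authors' deposited tables give, for each unigene, normalized counts (a signal) in A and in B, a fold change, log2 fold change, p-value and adjusted p-value, and for the best protein hit the percent identity and alignment score. The submitters' processing notes name DESeq; the sources used here do not give the assembler, the aligner or versions. A stray row of the *A. galli* table, an aligner's program record, was removed. Each listed unigene has at least 1 read in A and in B.

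Whole reads were recovered from the step of the deposited normalized counts (100% of values up to 200 were whole within 0.1 read). With 1 library per group a count test has no replicates and was not run. Most counts were even, so intervals (Clopper-Pearson) used reads divided by 2, and cover counting error only. Log2 ratios used a pseudocount of 1, and medians took members with a mean of at least 10. The conditions could not be tied to the treated and control groups of the plan, so the planned comparison is given as B over A. Members, pathway lists and names followed product wording, and all were chosen with earlier results of these data known. Named unigenes were the 3 most abundant per class, all of a class with 5 or fewer, the 5 largest differences each way with at least 100 counts, and the leading entry of each list; the other members were added after their values were seen, to account for each. Scripts were tested on simulated data, with Python 3.11.15, numpy 2.4.6, pandas 2.3.3 and scipy 1.17.1.

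Alternatives were a pseudocount of 5, total-count scaling, the trimmed mean of M-values (trimming 5% by level and 30% by log ratio), 2-fold, no minimum or 100, the interval in place of the ratio, sums per best-hit protein, Argonaute, Piwi and Dicer names only, close relatives only and identity of at least 50%. Chosen after seeing the data were names outside the rule, leaving out members aligned over fewer than 150 residues, and leaving out the most abundant member.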

Additional observations from a re-analysis of the deposited data

How the results depend on the processing

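No paired analysis was possible because each worm had 1 library per condition. Of the values under alternatives for the 8 summary results, 74 stayed and 24 moved. The margin for calling a value stayed is not stated here, and such a value was not always close to the main one. Among those that stayed, the *T. colubriformis* higher members (8) were 12 by total counts and 11 by the trimmed mean of M-values. Its lower members (9) were 7 by both. Its median (1.22) was 2.16 by the trimmed mean of M-values. The *A. galli* median (-0.55) was -0.17 by total counts. The values that moved follow. In *A. galli* the count of higher members (0) became 1 by total counts and 1 at 2-fold. The count of lower members (1) became 0 by total counts, per best-hit protein, at 50% identity and by the interval, and 9 at 2-fold. The summed log2 ratio (-0.56) was -0.18 by total counts, -0.43 by the trimmed mean of M-values, -0.53 for Argonaute, Piwi and Dicer names only and -0.66 without wago-1. In *T. colubriformis* the higher members (8) became 4 per best-hit protein, and for Argonaute, Piwi and Dicer names only the counts were 4 higher and 5 lower (9). The median (1.22) was 3.03 by total counts, -1.77 per best-hit protein, -0.36 with no minimum and -0.84 with the minimum of 100, so its sign depends on these choices. The sum (0.38) was 2.37 by total counts, 1.40 by the trimmed mean of M-values, -2.01 for Argonaute, Piwi and Dicer names only, 0.68 at 50% identity, 0.52 without alignments under 150 residues and -2.15 without Sheep_Unigene_62464 (-0.16 by total counts). Among the 22 named members, 16 moved by more than their counting interval by total counts, 11 by the trimmed mean of M-values, 8 per best-hit protein and 1 with a pseudocount of 5. None changed sign but NRDE-3 Chick_Unigene_142125 (0.34), which takes the -0.49 of its protein's sum. The causes were not tested. Total-count scaling moves the median of all unigenes by 0.38 in *A. galli* and 1.77 in *T. colubriformis*, and the trimmed mean of M-values by 0.13 and 0.87. Depth limits members with few reads, whose intervals span several log2 units.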

Other observations

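Dicer itself was outside the name rule and was looked up after the data were seen. In *A. galli* 3 unigenes hit DCR-1 of *A. suum*, with 1066.8 and 1127.2 normalized counts in conditions A and B (0.08, interval -0.09 to 0.25), 851.8 and 353 (-1.27, -1.53 to -1.01), and 785.9 and 298.8 (-1.39, -1.68 to -1.12). Another unigene hit dcr-1 of *T. canis* with 34.5 and 61.1 (0.81, -0.07 to 1.77). The DCR-1 unigenes thus differ among themselves by more than counting error.

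An Argonaute spelled Argonatue in its entry, ALG-5, was also missed by the rule. Its 3 unigenes had 1887.1 and 1021.7 normalized counts (-0.88), 1350.7 and 889.5 (-0.60), and 1008 and 776.1 (-0.38). With CBR-RRF-1, an RdRP name (247.4 and 148.9, -0.73), the 8 unigenes outside the rule had a median of -0.67 and 0 calls.

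Gene ontology terms in the tables mark further products without a descriptive name. In *A. galli* 14 members and 8 other unigenes carry gene silencing by RNA, among the latter an uncharacterized product with 11440.4 and 8929.6 normalized counts (Chick_Unigene_105456, -0.36) and another with 10028.8 and 3270.1 (Chick_Unigene_25188, -1.62). RNA-directed RNA polymerase activity is carried by 11 members and 13 other unigenes. In *T. colubriformis* a nuclease-like protein with the silencing term had 50886 and 723.5 (Sheep_Unigene_2659, -6.13), and an uncharacterized product with the polymerase term had 328 and 17833.5 (Sheep_Unigene_89957, 5.76).

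Some *T. colubriformis* unigenes align over a whole protein on very few reads. Of 877 unigenes aligned over at least 800 residues, 299 (34.1%) had fewer than 30 reads per kb in both conditions together, against 0 of 1651 in *A. galli*, where the lowest was 44.7. The Piwi domain members on ANCDUO_07727 had 3.59 and 3.87 reads per kb, and those on OESDEN_03219 had 15.4 and 30.5. How transcripts of that length were assembled from so few reads was not tested.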
